A study of Mus musculus with 12 samples.

Results

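Collagens and laminins are the main building proteins of the extracellular matrix. Each collagen molecule is a triple helix of chains encoded by Col genes, and each laminin is a trimer of an alpha, a beta and a gamma chain encoded by Lama, Lamb and Lamc genes. The genes described here are all rows of the deposited count table whose names follow these patterns, which gave 45 genes, 34 for collagen chains and 11 for laminin chains, of 12975 genes in all. The rule reads the names alone.

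The libraries came from the muscularis of the small intestine (the muscle layers with the myenteric plexus) of PLPCreERT2 Rpl22HA mice, in which tamoxifen switches on an HA-tagged form of the ribosomal protein Rpl22 in the cells where the Cre driver is active. Enteric glia are the cells the study meant to reach, and any other cell in which the driver is active would carry the tag as well. All animals, controls included, carried both alleles and received 2 tamoxifen injections at an age of 10 to 12 weeks, and were killed 3 to 4 weeks after the first. Tissue was taken either from naive animals (T0) or 3 h after intestinal manipulation (T3), a handling of the gut during surgery that sets off inflammation of the muscularis, so T3 differs from T0 by the whole procedure. Each homogenate was split between an anti-HA antibody, which pulls down tagged ribosomes with their mRNA (HA), and an IgG1 control antibody (IgG). There were 3 animals at each time (animals 1, 2 and 4 at T0 and animals 1, 3 and 4 at T3), which makes 12 libraries in 4 groups of 3.

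Fibrillar collagens such as types I and III form the fibres of connective tissue and are the product of fibroblasts above all. Fibril-associated collagens decorate the surface of such fibres, collagen IV and the laminins build basement membranes, and the multiplexins collagen XV and XVIII lie at the border between the basement membrane and the tissue around it. Myenteric ganglia are wrapped in a basement membrane, and the glia of peripheral nerves are known makers of laminin and collagen IV.

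Levels are given as CPM, the unique molecular identifiers counted for a gene per 1000000 of its library, listed for the animals in ascending number. The libraries were counted near the 3′ end of the transcripts, so CPM is not a level per length and levels of different genes are not compared. Totals ran from 1221788 to 2870591 counts in HA and from 88136 to 1289833 in IgG, the 3 IgG T3 libraries holding 88136, 92022 and 248522. A count of 3, taken here as the floor of detection, equals 1.05 to 2.46 CPM in HA but 12.1 to 34.0 CPM in IgG T3, so the IgG T3 values of all genes below rest on few counts. TMM factors were 0.839 to 0.846 in HA T3 and 0.952 to 1.04 in HA T0, and the CPM printed here are not scaled by them. For T3 over T0 in HA, rises are therefore larger and falls smaller than the CPM alone would give. Differences are log2 fold changes with their standard error and a Benjamini-Hochberg adjusted p over all genes tested, from edgeR's quasi-likelihood test with TMM scaling, and a gene is called at an adjusted p under 0.05. Where an adjusted p under another setting is printed, the range over the alternatives tried follows it. Where every IgG library of a time held 3 counts or fewer, the difference is given as "at least" a fold. This divides the mean HA CPM by the mean CPM of 3 counts in those IgG libraries. It bounds the ratio of group means and not that of each animal.

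Genes of other cells moved with the antibody and with time. Summed over 16 glial markers, HA T0 held 5279.6 to 6849 CPM and IgG T0 927 to 1058, and 5 markers of interstitial cells of Cajal (pacemaker cells of gut muscle) held 2741 to 3485 and 255 to 357 CPM. The HA libraries were higher at T0 for 14 of 15 of the former (Cdh19 was at 0 in IgG), and of the latter 3 of 4. Of all genes tested at T0, 16.0% were higher in HA and 14.4% lower. Smooth muscle markers (13 genes) were lower in HA T0, 18089 to 27473 CPM, than in IgG T0, 56134 to 72223 CPM, but were still abundant in HA. With time the glial sum in HA went to 11087 to 11585 CPM and that of the interstitial cells to 1216 to 1588 CPM. By gene, 4 of 15 glial markers tested rose in HA and 1 fell, with a median of 0.26, and 0 of 4 markers of the interstitial cells rose and 3 fell. Of all genes tested with time in HA, 18.7% rose and 15.1% fell. In bulk libraries, fewer cells of a type and less RNA per cell cannot be told apart.

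Of the 45 genes, 35 passed the filter on low counts in at least 1 comparison of 2 groups. A further 3 genes (Col5a2, Col6a4 and Col7a1) were tested only in the interaction of antibody and time, and 7 in no comparison. Collagen chains together made up 4244, 4860.0 and 4485 CPM in HA T0 against 3591, 3588 and 3200.4 CPM in IgG T0, a summed level that hides opposite differences of single genes. In HA T3 the sum was 4281, 5324 and 4327 CPM and in IgG T3 3245, 4999 and 2704 CPM. The laminin chains summed to 939, 1024 and 722 CPM in HA T0, 701, 883 and 762 CPM in IgG T0, 926, 1024 and 839 CPM in HA T3 and 783, 1445 and 1066 CPM in IgG T3, so their summed level overlapped between all groups.

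**Figure D1:**
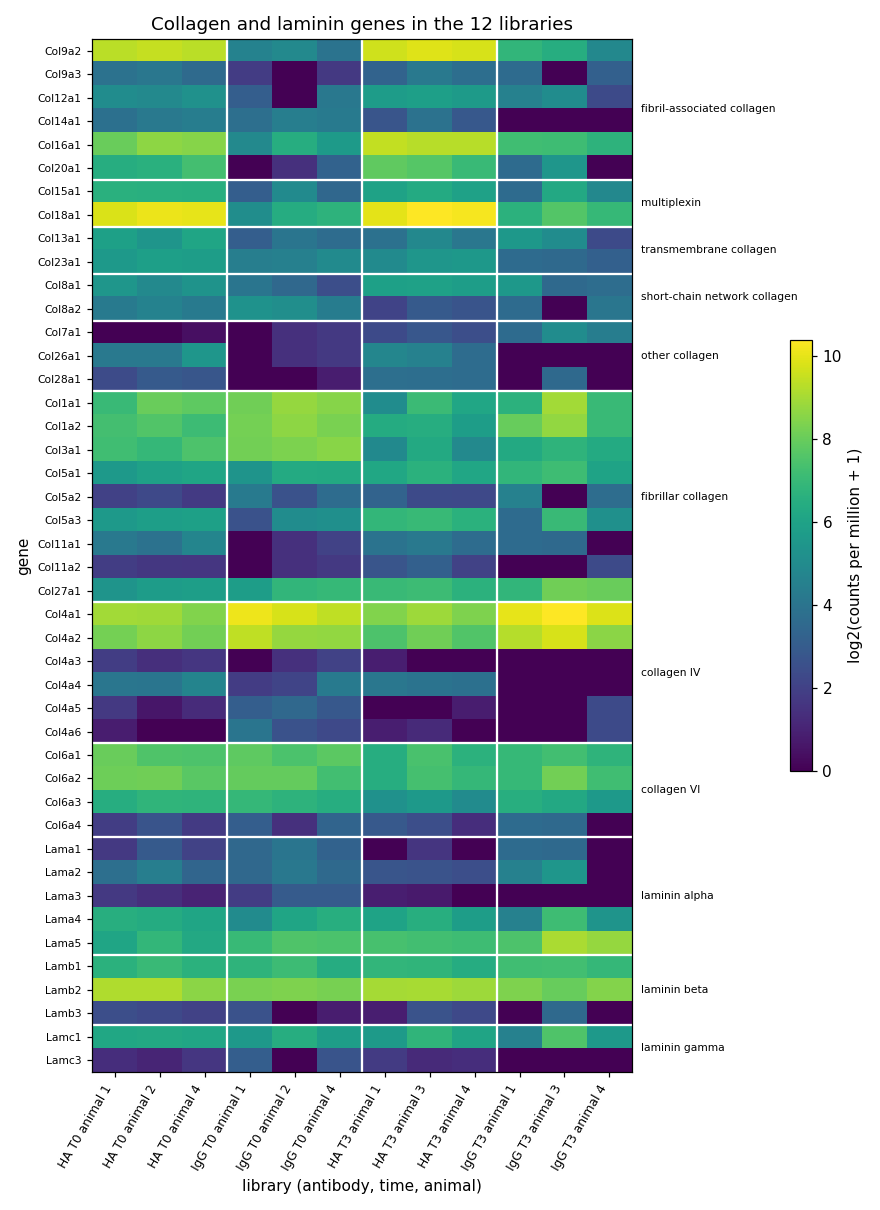
Level of 44 of the 45 collagen and laminin genes in each of the 12 libraries as log2(CPM + 1), from dark (0) to yellow, with genes in rows by role and libraries in columns by antibody, time and animal. Col9a2, Col16a1 and Col18a1 are brighter in both HA groups than in both IgG groups, while Col4a1 and Col4a2 show the opposite.

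To show the stretch of genome ahead of the genes described first, and the genes with a match, the windows of up to 250 bases before the annotated start are printed for Col9a2, Col16a1, Col20a1, Col28a1 and Col3a1, from RefSeq on GRCm38.p6 (mm10), on the strand of the gene. For Col9a2 only the 69 bases outside its own transcript are shown, and the Col16a1 and Col20a1 windows overlap exons of other annotated genes (Gm12963 and BX649560.1). Capitals mark the letters ACAAAG or their reverse complement, the core that SOX factors such as the glial factor SOX10 are known to bind.
Col9a2, chr4:121039316-121039384, plus strand: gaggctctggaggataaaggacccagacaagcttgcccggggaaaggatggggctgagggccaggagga
Col16a1, chr4:130047590-130047839, plus strand: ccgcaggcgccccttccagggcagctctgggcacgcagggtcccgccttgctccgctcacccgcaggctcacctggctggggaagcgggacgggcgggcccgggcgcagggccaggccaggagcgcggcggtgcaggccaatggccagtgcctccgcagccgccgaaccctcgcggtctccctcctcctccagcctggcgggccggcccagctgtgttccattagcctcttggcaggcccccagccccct
Col20a1, chr2:180986285-180986534, plus strand: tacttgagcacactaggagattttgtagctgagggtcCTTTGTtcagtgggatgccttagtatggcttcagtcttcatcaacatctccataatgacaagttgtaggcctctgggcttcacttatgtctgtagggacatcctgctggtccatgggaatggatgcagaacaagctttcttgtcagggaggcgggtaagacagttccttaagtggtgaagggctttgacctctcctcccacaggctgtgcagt
Col28a1, chr6:8192618-8192867, minus strand: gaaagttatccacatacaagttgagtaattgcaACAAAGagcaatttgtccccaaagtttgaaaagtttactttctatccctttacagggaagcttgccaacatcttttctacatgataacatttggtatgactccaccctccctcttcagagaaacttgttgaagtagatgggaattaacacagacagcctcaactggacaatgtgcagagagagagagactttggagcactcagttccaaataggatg
Col3a1, chr1:45311288-45311537, plus strand: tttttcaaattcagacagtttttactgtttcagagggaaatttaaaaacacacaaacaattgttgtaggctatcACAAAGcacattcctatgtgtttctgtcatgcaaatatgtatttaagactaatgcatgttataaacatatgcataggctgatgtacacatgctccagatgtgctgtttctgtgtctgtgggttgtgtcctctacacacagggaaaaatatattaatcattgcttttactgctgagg
RefSeq held a window for 32 of the 45 genes, 35 windows in all, and 3 of the 35 contained ACAAAG on either strand, against 16.5% of all 32851 mouse windows of this length. The AP-1 letters TGANTCA were found in 1 of the 35, that of Col6a1, against 6.75% of all. These letters describe the windows only and show no binding.

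The comparison of HA with IgG asked which of these mRNAs made up a larger or smaller share of the HA libraries than of the IgG libraries. It sets shares of libraries against each other and not amounts brought down. A gene lower in HA can therefore still be held by tagged ribosomes. At T0, 13 of the 34 genes tested were higher in HA than in IgG, with 9 lower, where 16.0% of all genes tested were higher and 14.4% lower. Without animal 1 or animal 4 of HA T0 the genes lower numbered 5. At T3 7 of 26 were higher and 5 lower, against 11.8% and 10.2% of all genes. These T3 counts depended on single libraries, being 4 and 7 without animal 3 of HA T3, 4 and 5 without animal 4 of HA T3, 12 and 5 without animal 3 of IgG T3 and 5 and 3 without animal 4 of IgG T3, and on the filter, with 12 and 6 where no filter was used. The median log2 fold change of the tested collagen and laminin genes was 0.22 at T0 and 0.06 at T3, beside -0.02 and 0.02 for all genes. By role, the genes higher at T0 were 5 of 6 fibril-associated collagens, both multiplexins, both transmembrane collagens and 1 gene each of the short-chain, fibrillar, laminin beta and unclassed groups. Those lower included 4 of 7 fibrillar collagens, 2 of 3 collagen IV chains and 2 of 4 laminin alpha chains.

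**Figure D2:**
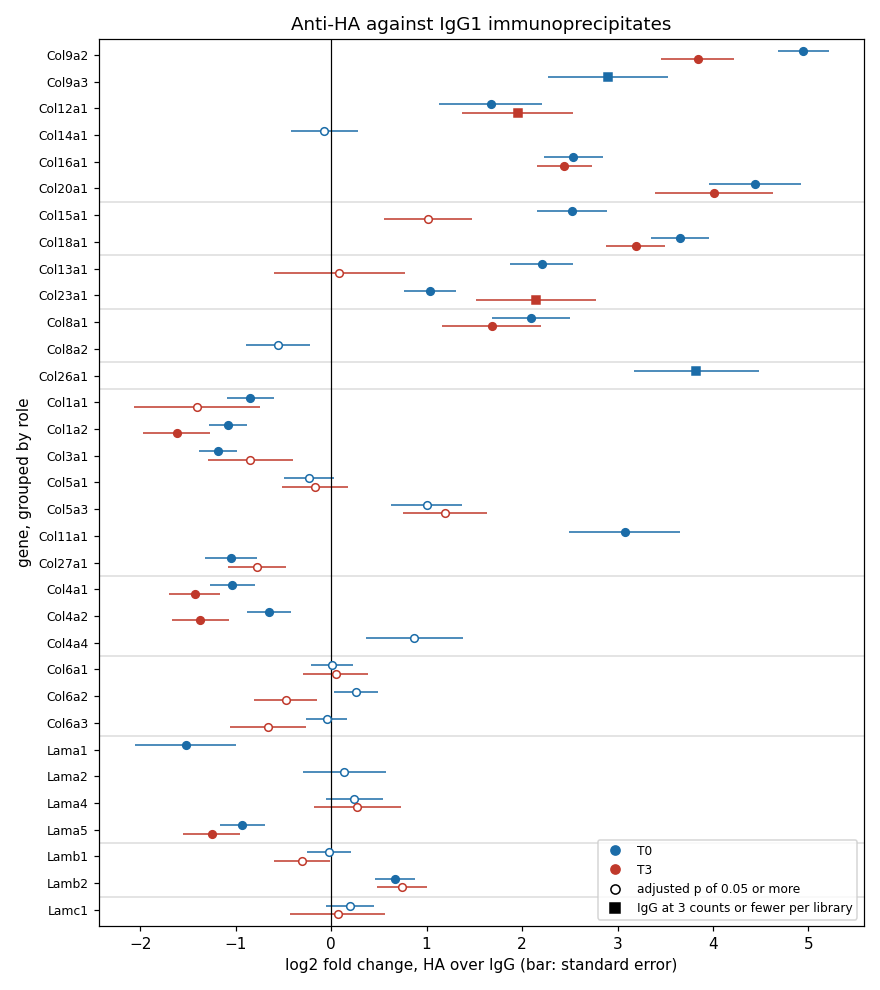
Log2 fold change of HA over IgG at T0 (blue) and T3 (red) for the genes tested, 1 left out, with the standard error as a bar, open symbols for an adjusted p of 0.05 or more, and squares where every IgG library held 3 counts or fewer, so that the fitted value is no bound. Points to the right are higher in HA, with Col9a2 at 4.95 and 3.84, and points to the left are lower, with Col4a1 at -1.03 and -1.43.

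Col9a2 (chr4:121039385-121055322, mm10) encodes a chain of collagen IX, a fibril-associated collagen best known from cartilage. It was at 637, 714 and 639 CPM in HA T0 and at 23.2, 29.1 and 14.7 CPM in IgG T0. At T3 it was at 807, 956 and 865 CPM in HA and 113, 86.9 and 28.2 CPM in IgG. All 6 HA libraries lay above all 6 IgG libraries, and all 3 HA T3 libraries above all 3 HA T0 libraries. HA exceeded IgG by 4.95 ± 0.27 (adjusted p 3.63e-08) at T0 and 3.84 ± 0.38 (adjusted p 3.21e-06) at T3, and T3 exceeded T0 in HA by 0.67 ± 0.17 (adjusted p 0.00408). With library totals in place of TMM factors the latter was 0.40 and still called. Its partner Col9a3 was at 11.1 to 16.2 CPM in HA T0, with at most 3 counts in any IgG T0 library. That made it at least 2.73-fold higher in HA (adjusted p 0.00322), and T3 minus T0 in HA was 0.20 ± 0.33 (adjusted p 0.677). Its 3′ window overlaps exons of Tcfl5 on the other strand, and whether the counting used strand is not given in the sources used here.

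Col20a1 encodes the fibril-associated collagen XX (chr2:180986535-181018363). In HA T0 it was at 87.2, 95.5 and 154 CPM and in IgG T0 at 0, 1.71 and 8.53 CPM. HA T3 held 230.0, 203 and 130.0 CPM and IgG T3 11.3, 43.5 and 0 CPM. HA and IgG were far apart at both times, while animal 4 of HA T0 overlapped the HA T3 range. The difference between antibodies was 4.44 ± 0.49 (adjusted p 3.66e-05) at T0 and 4.01 ± 0.62 (adjusted p 0.000206) at T3. It rests on few IgG counts, since without animal 4 of IgG T0, which held 11 counts against 0 and 1 in the others, it was 6.66 at T0, and without animal 3 of IgG T3 it was 6.04 at T3. Col20a1 rose with time in HA by 1.01 ± 0.23 (adjusted p 0.00232). Exons of the nicotinic receptor gene Chrna4 lie on the other strand of its 3′ window.

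Col16a1 encodes collagen XVI, a fibril-associated collagen that is also found close to basement membranes. It was at 259.5, 391 and 361 CPM in HA T0 and 28.3, 89.1 and 50.4 CPM in IgG T0. HA T3 held 699, 629 and 614 CPM and IgG T3 147, 141 and 105 CPM. Each HA library lay above every IgG library, and each group lay higher at T3 than at T0 with no overlap. HA exceeded IgG by 2.54 ± 0.31 (adjusted p 8.04e-05) at T0 and 2.44 ± 0.29 (adjusted p 1.62e-05) at T3. The rise with time was 1.21 ± 0.18 (adjusted p 2.44e-05) in HA. In IgG the change was 1.16 ± 0.42 (adjusted p 0.127) and was not called.

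Col12a1, for the fibril-associated collagen XII of tendon and stressed tissue, was at 31.9, 29.1 and 37.3 CPM in HA T0 and 7.73, 0 and 17.1 CPM in IgG T0. The T3 levels were 53.2, 58.2 and 49.8 CPM in HA and 22.7, 32.6 and 4.02 CPM in IgG, where no library held more than 3 counts. The HA libraries lay above the IgG libraries at both times, and those of HA T3 above those of HA T0. HA was higher by 1.67 ± 0.54 (adjusted p 0.0352) at T0 and at least 2.05-fold at T3 (adjusted p 0.0208), and T3 was higher than T0 in HA by 0.98 ± 0.21 (adjusted p 0.00140). The T0 call was lost without any 1 HA T0 library (animal 1, adjusted p 0.0983; animal 2, 0.0839; animal 4, 0.106) or without animal 1 of IgG T0 (0.0701; range 0.00501 to 0.106), and without animal 4 of IgG T0 the difference was 3.35. The T3 call was lost without animal 3 of HA T3 (0.0574), animal 4 of HA T3 (0.0548) or animal 4 of IgG T3 (0.219; range 0.00257 to 0.219). In a fit of all 12 libraries the change with time had an adjusted p of 0.0540 (range 0.00110 to 0.0540). Col14a1, for collagen XIV, was the fibril-associated gene not called between antibodies, at 13.4 to 20.2 CPM in HA T0 and 12.9 to 20.6 CPM in IgG T0, and its change in HA was -0.66 ± 0.36 (adjusted p 0.166). Without animal 3 of HA T3 the adjusted p of that change was 0.0302 (range 0.0302 to 0.453).

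Col18a1 (chr10:77052178-77166548) encodes collagen XVIII, a heparan sulfate proteoglycan of basement membranes whose end fragment is endostatin. Its level was 889, 1080.1 and 1026 CPM in HA T0 and 33.5, 85.7 and 103 CPM in IgG T0. It was 1011, 1345 and 1207 CPM in HA T3 and 102, 196 and 125 CPM in IgG T3. The antibodies were separated at both times, HA being higher by 3.65 ± 0.30 (adjusted p 1.81e-06) at T0 and 3.19 ± 0.31 (adjusted p 3.07e-06) at T3, but HA T0 and HA T3 overlapped. The change with time in HA, 0.52 ± 0.17 (adjusted p 0.0249), lost its call with library totals as scaling (0.25, adjusted p 0.234), without animal 1 of HA T0 (0.0920), animal 3 of HA T3 (0.0886) or animal 4 of HA T3 (0.0935), and in the fit of all 12 libraries (0.151; range 0.0155 to 0.234). In IgG it was 0.84 ± 0.43 (adjusted p 0.277).

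Its relative Col15a1, for collagen XV, was at 96.0, 92.2 and 89.5 CPM in HA T0 and 7.73, 30.9 and 10.1 CPM in IgG T0. At T3 the values were 62.2, 81.6 and 60.7 CPM in HA and 11.3, 76.1 and 28.2 CPM in IgG. The groups were apart at T0, HA being higher by 2.52 ± 0.37 (adjusted p 0.000208), and overlapped at T3 through animal 3 of IgG T3, which held 7 counts. The T3 difference was 1.01 ± 0.46 (adjusted p 0.124), or called without that library (adjusted p 0.0171, range 0.0171 to 0.352). In HA it was -0.17 ± 0.19 (adjusted p 0.512) with time.

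Transmembrane collagens are anchored in the cell surface by a single helix. Col13a1, for collagen XIII of adhesion sites and the neuromuscular junction, was at 58.4, 41.9 and 67.6 CPM in HA T0 and 7.73, 15.4 and 11.6 CPM in IgG T0. In HA T3 the gene was at 13.9, 28.1 and 16.4 CPM and in IgG T3 at 45.4, 32.6 and 4.02 CPM, from 1 to 4 counts in each IgG library. HA lay above IgG at T0 and all 3 HA T3 libraries lay below all HA T0 libraries, whereas HA and IgG overlapped at T3. The HA to IgG difference was 2.20 ± 0.33 (adjusted p 0.000225) at T0 and 0.08 ± 0.69 (adjusted p 0.952) at T3, and Col13a1 fell in HA by 1.24 ± 0.27 on the log2 scale (adjusted p 0.00165). Col23a1, for collagen XXIII, was at 47.6, 57.6 and 54.7 CPM in HA T0 and 20.6, 22.3 and 30.2 CPM in IgG T0. At T3 it was at 30.3, 43.5 and 45.9 CPM in HA and at 11.3, 10.9 and 8.05 CPM, or 1 to 2 counts, in IgG. No IgG library reached an HA library of its time. HA was higher by 1.04 ± 0.27 (adjusted p 0.0102) at T0 and, in the means, at least 1.52-fold at T3 (adjusted p 0.0192, or 0.125 without animal 4 of IgG T3, range 0.00267 to 0.125). In animal 1 the HA T3 level, 30.3 CPM, lay below the 34.0 CPM that 3 counts are worth in its IgG library. With time in HA Col23a1 was at -0.14 ± 0.22 (adjusted p 0.652).

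**Figure D3:**
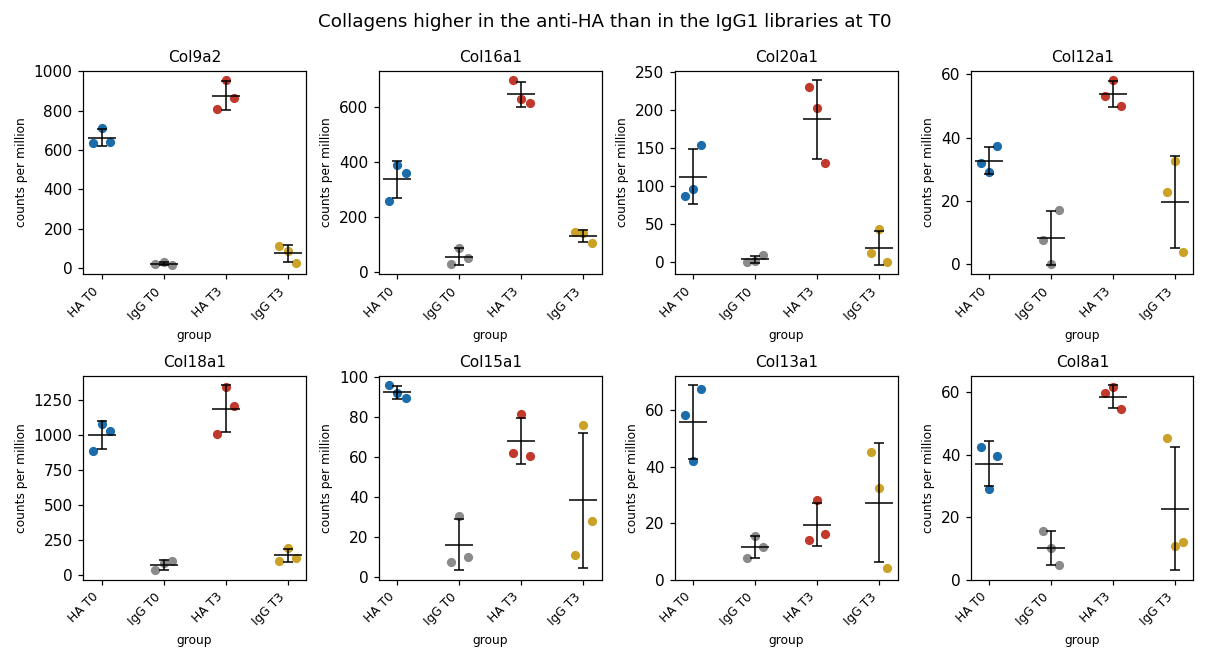
CPM in each library (points, 3 per group, animals in ascending number) with the mean (dash) and SD (bar) for 8 collagen genes of the T0 comparison, in the groups HA T0, IgG T0, HA T3 and IgG T3, each panel with its own linear axis. Col16a1 lies higher at T3 in every library of both precipitates, with 614 to 699 CPM in HA, while Col13a1 falls in HA to 13.9 to 28.1 CPM and overlaps IgG there.

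The short-chain collagen VIII forms sheets under endothelium and around smooth muscle. Col8a1 was at 42.6, 29.1 and 39.7 CPM in HA T0 and 15.5, 10.3 and 4.65 CPM in IgG T0. HA T3 held 59.7, 61.5 and 54.5 CPM and IgG T3 45.4, 10.9 and 12.1 CPM. HA lay above IgG at both times and HA T3 above HA T0, with differences of 2.09 ± 0.41 (adjusted p 0.00159) at T0, 1.68 ± 0.52 (adjusted p 0.0254) at T3 and 0.91 ± 0.22 (adjusted p 0.00283) for T3 over T0 in HA. The T3 call between antibodies was lost without animal 1, 3 or 4 of HA T3 (adjusted p 0.0613, 0.0658 and 0.0637) and without animal 4 of IgG T3 (0.184; range 0.00436 to 0.184). The other chain, Col8a2, was at 18.4, 23.5 and 18.5 CPM in HA T0 and 38.6, 34.3 and 19.4 CPM in IgG T0. At T3 the values were 3.27, 6.69 and 5.45 CPM in HA and 11.3, 0 and 16.1 CPM in IgG. All 3 HA T3 libraries lay below all HA T0 libraries, so the chains of collagen VIII went opposite ways in HA, Col8a2 falling at T3 by 1.66 ± 0.36 on the log2 scale (adjusted p 0.00146). Between antibodies at T0 it was -0.56 ± 0.33 (adjusted p 0.224).

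Among the other collagens, Col26a1 (collagen XXVI) was at 17.7, 17.3 and 43.2 CPM in HA T0 and 0, 1.71 and 2.33 CPM in IgG T0. In HA T3 its level was 26.2, 22.7 and 11.7 CPM, and at T3 it had no count in any of the IgG libraries. With at most 3 counts per IgG T0 library, it was at least 5.14-fold higher in the HA mean (adjusted p 0.000621), to which animal 4 gave 43.2 CPM. T3 minus T0 in HA was -0.11 ± 0.37 (adjusted p 0.846). Col28a1, for collagen XXVIII, which is known from peripheral nerve where it lies next to Schwann cells, was low, at 4.22 to 6.70 CPM in HA T0, 11.7 to 13.1 CPM in HA T3 and at most 1 count in any IgG library. Of the comparisons of 2 groups it was tested only with time in HA, where it rose by 1.43 ± 0.36 (adjusted p 0.00436).

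Among the fibrillar collagens, the classical fibroblast chains were on the IgG side. Col1a1 and Col1a2 encode the chains of collagen I. Col1a2 (chr6:4504814-4541544) was at 157, 191 and 141 CPM in HA T0 and 299, 399 and 316 CPM in IgG T0. The T3 levels were 82.7, 86.9 and 53.7 CPM in HA and 249.6, 413 and 133 CPM in IgG. Every HA library lay below the IgG libraries of its time, and every HA T3 library below every HA T0 library. HA minus IgG was -1.08 ± 0.20 (adjusted p 0.00123) at T0 and -1.62 ± 0.35 (adjusted p 0.00264) at T3 (-1.06 without animal 3 of IgG T3, still called), and T3 minus T0 in HA was -0.86 ± 0.21 (adjusted p 0.00312). In IgG the change with time was -0.44 ± 0.35 (adjusted p 0.514).

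Col1a1 was at 132, 262 and 223 CPM in HA T0 and 281, 434 and 367 CPM in IgG T0. In HA T3 the gene was at 31.9, 133 and 69.3 CPM and in IgG T3 at 102, 489 and 133 CPM, with animal 3 of HA T3 the highest of HA T3. The antibodies were apart at T0 and overlapped at T3. The T0 difference of -0.85 ± 0.24 (adjusted p 0.0173) lost its call without animal 1 of HA T0 (0.0863), animal 4 of HA T0 (0.0506), animal 2 of IgG T0 (0.0734) or animal 4 of IgG T0 (0.0555), and in the fit of all 12 libraries (0.285; range 0.000213 to 0.285). At T3 it was -1.41 ± 0.66 (adjusted p 0.171), and 0.00124 with the animal as a block or 0.0161 without animal 3 of HA T3 (range 0.00124 to 0.678). The change with time in HA, -1.10 ± 0.56 (adjusted p 0.198), was called only without animal 3 of HA T3 (0.0158, range 4.17e-07 to 0.375) among the fits that left out a library. In IgG it was -0.66 ± 0.46 (adjusted p 0.433), called without animal 3 of IgG T3 (0.0211, range 0.0154 to 0.761).

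Col3a1 encodes collagen III of elastic connective tissue. In HA T0 it was at 146, 121 and 180.1 CPM and in IgG T0 at 289, 324 and 378 CPM. HA T3 held 29.5, 77.6 and 28.8 CPM and IgG T3 79.4, 109 and 80.5 CPM. HA lay below IgG at both times, and T3 below T0 in both precipitates, without overlap. The HA to IgG difference was -1.19 ± 0.20 (adjusted p 0.000603) at T0 and -0.85 ± 0.45 (adjusted p 0.191) at T3, called there without animal 3 of HA T3 (0.0133, range 0.0133 to 0.453). Col3a1 was the 1 gene of the 45 called with time in both precipitates, T3 minus T0 being -1.43 ± 0.35 (adjusted p 0.0134) in HA and -1.92 ± 0.31 (adjusted p 0.00158) in IgG.

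Col27a1 encodes the fibrillar collagen XXVII of cartilage. It was at 41.1, 52.5 and 55.0 CPM in HA T0 and 54.1, 115 and 124 CPM in IgG T0. At T3 it was at 130.1, 137 and 103 CPM in HA and 113, 283 and 258 CPM in IgG. HA and IgG overlapped at both times, whereas all HA T3 libraries lay above all HA T0 libraries. HA minus IgG was -1.05 ± 0.27 (adjusted p 0.0100) at T0, or 0.0750 without animal 4 of IgG T0 (range 0.00071 to 0.0750). At T3 the difference was -0.78 ± 0.30 (adjusted p 0.0739), or 0.0214 without animal 1 of IgG T3 (range 0.0214 to 0.516). Col27a1 rose with time in HA by 1.59 ± 0.19 (adjusted p 2.04e-06). In IgG the change was 1.15 ± 0.40 (adjusted p 0.115), or 0.0410 without animal 1 of IgG T3 (range 0.0410 to 0.369).

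The minor fibrillar chains of collagen V set the diameter of collagen I fibrils. Col5a3 was at 48.8, 55.9 and 59.6 CPM in HA T0 and 5.15, 32.6 and 34.9 CPM in IgG T0. HA T3 held 119, 128 and 98.9 CPM and IgG T3 11.3, 130.4 and 36.2 CPM, the last from 1, 12 and 9 counts. HA lay above IgG at T0, the groups overlapped at T3, and HA T3 lay above HA T0. The HA to IgG difference was 1.00 ± 0.37 (adjusted p 0.0552) at T0 and 1.19 ± 0.44 (adjusted p 0.0610) at T3, which passed the threshold with the animal as a block (0.0101 and 0.0360). The T0 value did so without animal 4 of IgG T0 (0.0447, range 0.0101 to 0.131) and the T3 value without animal 3 of IgG T3 (0.000897, range 0.000897 to 0.254). Col5a3 rose with time in HA by 1.34 ± 0.18 (adjusted p 1.17e-05).

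Col5a1 was at 48.8, 61.5 and 68.3 CPM in HA T0, 72.8, 98.3 and 70.9 CPM in HA T3, 41.2, 80.6 and 78.3 CPM in IgG T0 and 113, 141 and 64.4 CPM in IgG T3. HA T3 lay above HA T0 and the antibodies overlapped at both times, with differences of -0.23 ± 0.26 (adjusted p 0.526) and -0.17 ± 0.35 (adjusted p 0.777). The change of 0.71 ± 0.20 (adjusted p 0.0100) in HA lost its call with library totals as scaling (0.44, 0.0966), without animal 1 of HA T0 (0.0562) and without animal 3 of HA T3 (0.0546; range 0.00827 to 0.0966). Col11a1, a fibrillar chain that can pair with those of collagen V, was at 14.0 to 25.4 CPM in HA T0 and 0 to 3.10 CPM in IgG T0. It was the 1 fibrillar chain higher in HA at T0, by 3.08 ± 0.58 (adjusted p 0.00130), and T3 minus T0 in HA was -0.11 ± 0.31 (adjusted p 0.808). Col5a2 was at 22.7 CPM or less in every library and tested only in the interaction of antibody and time.

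Collagen IV is the network-forming collagen of every basement membrane, and its commonest form joins the chains of Col4a1 and Col4a2, which lie head to head on chromosome 8 (chr8:11198423-11312826 and chr8:11312805-11449287). Col4a1 was at 491, 485 and 339 CPM in HA T0 and 1113, 876 and 672 CPM in IgG T0. The T3 levels were 341, 467 and 332 CPM in HA and 1044, 1348 and 929 CPM in IgG. All HA libraries lay below all IgG libraries. HA minus IgG was -1.03 ± 0.23 (adjusted p 0.00437) at T0 and -1.43 ± 0.27 (adjusted p 0.00079) at T3, and with time there was no call in either precipitate, T3 minus T0 being 0.05 ± 0.20 (adjusted p 0.859) in HA and 0.29 ± 0.29 (adjusted p 0.619) in IgG. Col4a2 was at 297, 396 and 290.2 CPM in HA T0 and 667, 432 and 421 CPM in IgG T0. In HA T3 the gene was at 177, 282 and 188 CPM and in IgG T3 at 601, 869 and 382 CPM. It followed Col4a1, HA minus IgG being -1.37 ± 0.30 (adjusted p 0.00294) at T3 with no overlap. At T0 the difference of -0.65 ± 0.23 (adjusted p 0.0426) lost its call without animal 1 of HA T0 (0.128), animal 4 of HA T0 (0.151) or animal 1 of IgG T0 (-0.38, 0.217), without a filter on low counts (0.0731), with a filter of 5 counts (0.0681) and in the fit of all 12 libraries (0.0744; range 0.00942 to 0.217). Its change in HA was -0.33 ± 0.20 (adjusted p 0.216), or 0.0382 without animal 3 of HA T3 and 0.0172 with library totals (range 0.0172 to 0.580). The count ratio of Col4a1 to Col4a2 was 1.17 to 1.65 in HA T0, 1.60 to 2.03 in IgG T0, 1.66 to 1.93 in HA T3 and 1.55 to 2.43 in IgG T3. The ratio of HA T0 overlapped that of IgG T0, and the ratio of HA T3 that of IgG T3. The ratios of HA T0 and HA T3 lay narrowly apart, up to 1.65 and from 1.66, while those of IgG T0 and IgG T3 overlapped.

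The other chains of collagen IV serve specialised basement membranes. Col4a4 was at 15.6 to 24.7 CPM in HA T0 and 2.58 to 17.8 CPM in IgG T0, with no count in IgG T3. Its HA minus IgG value at T0 was 0.87 ± 0.51 (adjusted p 0.216), or 2.58 with an adjusted p of 0.0125 without animal 4 of IgG T0 (range 0.0125 to 0.465). Its change in HA was -0.09 ± 0.29 (adjusted p 0.836). Col4a3, Col4a5 and Col4a6 held at most 7, 8 and 6 counts in any library and passed the filter in no comparison. The same held for Col11a2, Lama3, Lamb3 and Lamc3, with at most 12, 9, 12 and 7 counts. Col6a4 reached 12 counts, and Col7a1, for the anchoring fibrils under epithelium, held 0, 0 and 1 counts in HA T0 and 5, 9 and 6 in HA T3, both too few for the comparisons of 2 groups.

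Collagen VI forms beaded filaments around cells of muscle and nerve from chains of Col6a1, Col6a2 and Col6a3. None was called between antibodies at either time, the differences at T0 being 0.01 ± 0.22, 0.26 ± 0.23 and -0.05 ± 0.21 (adjusted p 0.985, 0.429 and 0.889). Col6a3 was at 87.5, 112 and 108 CPM in HA T0 and 37.6, 48.1 and 31.1 CPM in HA T3. In IgG it was at 121, 105 and 89.2 CPM at T0 and 90.8, 76.1 and 48.3 CPM at T3. All HA T3 libraries lay below all HA T0 libraries, a change of -1.12 ± 0.21 (adjusted p 0.000384). Col6a2 was at 273, 283 and 213 CPM in HA T0 and 88.4, 159 and 121 CPM in HA T3. In IgG it was at 247, 243 and 151 CPM at T0 and 125, 293 and 149 CPM at T3. It fell in HA as well, by 0.80 ± 0.21 on the log2 scale (adjusted p 0.00770, or 0.0524 without animal 1 of HA T3, range 0.000222 to 0.0524). For Col6a1, at 180.5 to 259 CPM in HA T0 and 89.2 to 171 CPM in HA T3, the change was -0.52 ± 0.25 (adjusted p 0.114), with 0.00552 without animal 3 of HA T3 and 0.00925 with library totals (range 0.00116 to 0.354). At T3 HA minus IgG was 0.05 ± 0.34, -0.48 ± 0.33 and -0.66 ± 0.40 for Col6a1, Col6a2 and Col6a3.

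Of 8 laminin chains tested at T0, 1 was higher and 3 were lower in HA, where 16.0% of all genes tested were higher and 14.4% lower. Laminins with the alpha 5 chain are typical of epithelium, endothelium and muscle in adults. Lama5 was at 69.1, 118 and 75.6 CPM in HA T0 and 129, 185 and 172 CPM in IgG T0. At T3 it was at 164, 152 and 144 CPM in HA and 182, 543 and 431 CPM in IgG. HA lay below IgG at each time and HA T3 above HA T0. The HA to IgG difference was -0.93 ± 0.24 (adjusted p 0.00956) at T0 and -1.25 ± 0.30 (adjusted p 0.00582) at T3, and T3 minus T0 was 1.08 ± 0.20 (adjusted p 0.000413) in HA and 1.24 ± 0.36 (adjusted p 0.0623) in IgG. The T0 call was lost without animal 1 of HA T0 (0.0531) or animal 4 (0.0533; range 0.000321 to 0.0533) and the T3 call without animal 4 of IgG T3 (0.0674; range 0.000536 to 0.0674). In IgG the change was called without animal 1 of IgG T3 (0.00659), without a filter (0.0319) and in the fit of all 12 libraries (0.0191; range 0.00659 to 0.216). Epithelial markers (10 genes) summed to 150.1 to 735 CPM in HA T0, 737 to 1644 CPM in IgG T0, 85.1 to 197 CPM in HA T3 and 306 to 1014 CPM in IgG T3. Smooth muscle markers (13 genes) summed to 18089 to 27473, 56134 to 72223, 14417 to 16524 and 45370 to 72102 CPM in the same order of groups. Endothelial markers (10 genes) summed to 41.5 to 72.6, 85.0 to 120, 47.5 to 53.5 and 72.4 to 97.8 CPM in that order. The part of epithelial, endothelial or muscle RNA in the Lama5 values was not tested. Exons of Adrm1, a proteasome gene, lie on the other strand of its 3′ window.

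Lamb2 encodes the beta 2 chain of synaptic and muscle laminins. It was at 576, 575 and 389 CPM in HA T0 and 314, 338 and 307 CPM in IgG T0. The T3 levels were 507, 521 and 462 CPM in HA and 329, 249.9 and 354 CPM in IgG. Every HA library lay above the IgG libraries of its time. The HA to IgG difference was 0.66 ± 0.21 (adjusted p 0.0266) at T0 and 0.74 ± 0.27 (adjusted p 0.0518) at T3. The T3 adjusted p was 0.0437 with the animal as a block, 0.0301 with DESeq2 and 0.00444 in the fit of all 12 libraries. It was 0.00979 without a filter and 0.0153 with a filter of 5 counts. The T0 call was lost without animal 1 of HA T0 (0.110), animal 2 of HA T0 (0.0942) or animal 4 of IgG T0 (0.0625; range 0.00609 to 0.110), and at T3 a call was gained without animal 1 of IgG T3 (0.0469) or animal 4 (0.0182; range 0.00444 to 0.164). Its 3′ window shares exons with Usp19 on the same strand. Lamb1, for the beta 1 chain found in most laminins, did not pass the test in any comparison, with -0.02 ± 0.23 (adjusted p 0.959) at T0. The count ratio of Lamb2 to Lamb1 was 3.94, 4.38 and 5.89 in HA T0 in ascending order against 2.46, 2.90 and 3.63 in IgG T0. At T3 it was 4.40, 4.69 and 5.45 in HA against 1.64, 2.23 and 2.93 in IgG, so the HA and IgG ratios did not overlap at either time.

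Among the other laminin chains, Lama4, the alpha 4 chain of vessels and nerve, was at 67.2 to 90.6 CPM in HA T0 and 30.9 to 91.5 CPM in IgG T0, a difference of 0.24 ± 0.30 (adjusted p 0.575). Lamc1, the gamma 1 chain of most laminins, was at 70.4 to 77.1 CPM in HA T0 and 46.4 to 87.4 CPM in IgG T0, a difference of 0.20 ± 0.25 (adjusted p 0.588). Both had no call in any comparison. Lama2, the alpha 2 chain of muscle and Schwann cell basement membranes, was at 13.1, 20.7 and 9.41 CPM in HA T0 and 5.73, 5.35 and 4.67 CPM in HA T3. In IgG it was at 10.3, 17.1 and 10.9 CPM at T0 and 22.7, 43.5 and 0 CPM at T3, the latter from 2, 4 and 0 counts. All HA T3 libraries lay below all HA T0 libraries, and T3 minus T0 was -1.15 ± 0.41 (adjusted p 0.0358). That call was lost without animal 1 of HA T0 (0.0567), animal 2 of HA T0 (0.164), animal 1 of HA T3 (0.0752), animal 3 of HA T3 (0.0783) or animal 4 of HA T3 (0.123; range 0.00781 to 0.191), with DESeq2 (0.0848) and in the fit of all 12 libraries (0.112). Exons of Gm48084 lie on the other strand of the 3′ window of Lama2. Lama1, the alpha 1 chain of embryonic and meningeal basement membranes, was at 2.30 to 6.70 CPM in HA T0 and 8.53 to 15.4 CPM in IgG T0. HA minus IgG was -1.53 ± 0.53 (adjusted p 0.0425), a call lost without animal 1 of HA T0 (0.150) or animal 4 (0.144), without animal 1 of IgG T0 (0.0730), animal 2 (0.183) or animal 4 (0.0726), with either other filter, with DESeq2 and in the fit of all 12 libraries (range 0.0216 to 0.183).

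**Figure D4:**
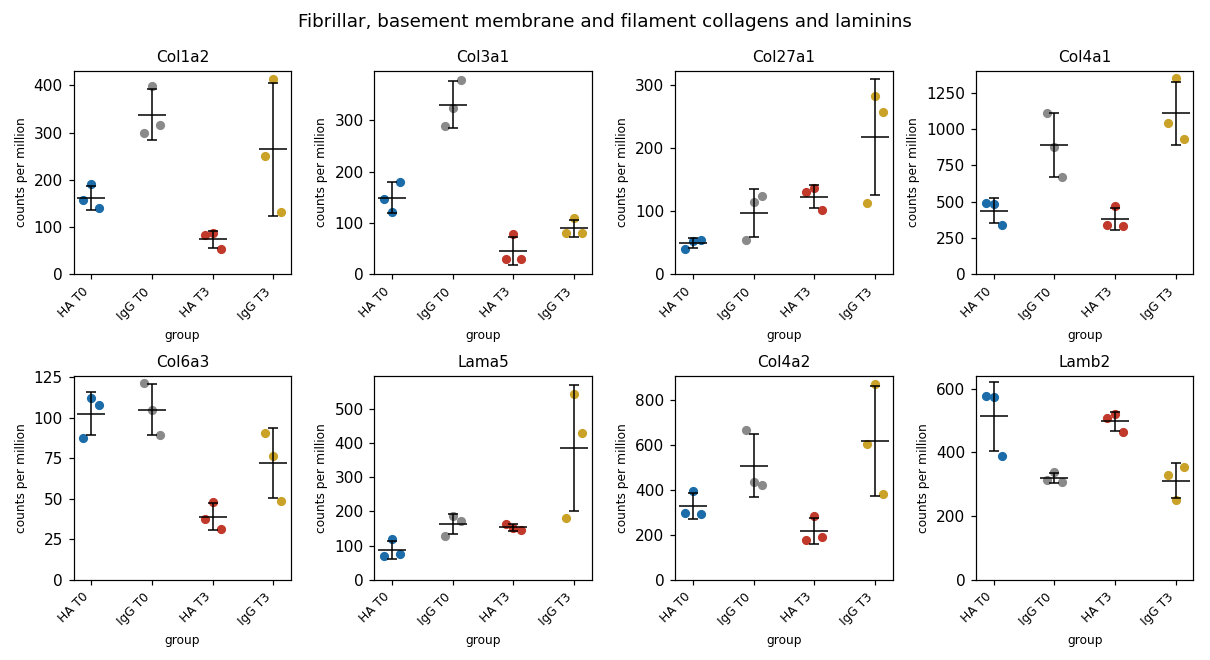
CPM in each library (points, 3 per group, animals in ascending number) with the mean (dash) and SD (bar) for 8 fibrillar, basement membrane and filament genes in the groups HA T0, IgG T0, HA T3 and IgG T3, each panel with its own linear axis. Col1a2, Col3a1, Col4a1 and Lama5 lie lower in every HA library than in the IgG libraries of that time, Lamb2 lies higher, and Col27a1 and Lama5 lie higher in HA T3 (103 to 137 and 144 to 164 CPM) than in HA T0.

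The comparison of T3 with T0 asked which of these mRNAs changed their share of the libraries 3 h after manipulation. In HA 12 of the 34 genes tested rose and 7 fell, against 18.7% of all genes higher and 15.1% lower. The genes that rose included the fibril-associated Col9a2, Col12a1, Col16a1 and Col20a1, the fibrillar Col5a1, Col5a3 and Col27a1, and Col8a1, Col18a1, Col28a1 and Lama5. Those that fell were Col1a2, Col3a1, Col6a2, Col6a3, Col8a2, Col13a1 and Lama2. The median change of the tested genes was 0.05 and that of all genes -0.02. With library totals in place of TMM factors the median of all genes was -0.28, the split of all calls went from 55.4% to 31.4% higher, and 10 of the genes were higher and 10 lower.

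In IgG 1 of 19 genes tested was called, Col3a1, which was lower (all genes, 4.43% higher and 1.03% lower), and 6 had an unadjusted p under 0.05. DESeq2 likewise called 1, and edgeR called 3 without animal 1 of IgG T3 and 2 without animal 3 of IgG T3. Where both precipitates were tested, HA and IgG changes were 1.59 and 1.15 for Col27a1, 1.08 and 1.24 for Lama5, 1.34 and 1.02 for Col5a3 and -1.12 and -0.64 for Col6a3. A change called in HA and not in IgG was therefore not shown to differ between them. The interaction of antibody and time, which tests that difference, called 0 of 38 genes with edgeR and 0 with DESeq2 (all genes, 0.301% higher and 0.0291% lower). Of the 38, 3 had an unadjusted p under 0.05 (Col14a1, Col4a4 and Col13a1), and the smallest adjusted p was 0.3. Col14a1 and Col4a4 had no count in IgG T3, so their fitted values are no bound, and for Col13a1 the change in HA minus that in IgG was -1.89 ± 0.80 (adjusted p 0.406). The median of all genes in the interaction was 0.17 with TMM factors and -0.18 with library totals.

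**Figure D5:**
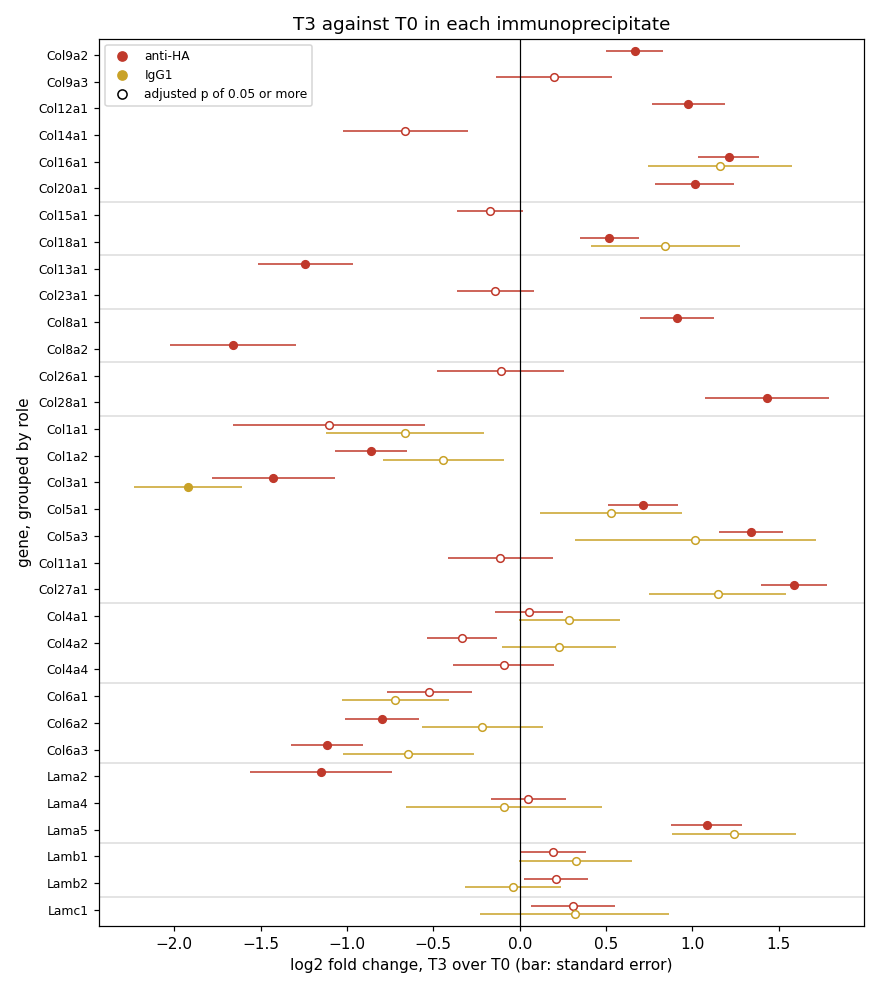
Log2 fold change of T3 over T0 in HA (red) and in IgG (yellow) for the genes tested, 1 left out, with the standard error as a bar and open symbols for an adjusted p of 0.05 or more. In HA Col27a1 lies farthest to the right of the genes drawn at 1.59 and Col8a2 farthest to the left at -1.66, and in IgG Col3a1 is the 1 filled symbol.

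Markers of other cells moved beside these changes, where 18.7% of all genes tested with time in HA were higher and 15.1% lower. In HA 5 of 12 neuron markers tested rose and 0 fell. Of smooth muscle markers 0 of 13 rose and 5 fell, and of macrophage markers 0 of 7 rose and 3 fell. Of the mesothelial markers (10 genes, from the lining of the outer gut wall), 8 of 8 tested fell with time in HA, and they summed to 234 to 333 CPM in HA T0 and 46.7 to 61.5 CPM in HA T3, and to 796 to 1410.3 and 159 to 338 CPM in IgG, with Bnc1 at 0 in IgG T3. Of the fibroblast markers (11 of 12 listed were in the files), 1 of 8 tested rose and 4 fell in HA, and they summed to 2288 to 2886 CPM in HA T0, 1993 to 2401 CPM in HA T3, 3181 to 3954 CPM in IgG T0 and 1679 to 2391 CPM in IgG T3, with Dpp4 at 0 in HA T3 and Mfap5 at 0 in IgG T3. These cells are known makers of collagens I, III and VI, and their part in the falls of Col1a2, Col3a1, Col6a2 and Col6a3 was not tested. Nor was the part of the interstitial cells of Cajal, whose markers were higher in HA than in IgG, in the genes higher in HA.

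Genes that work with collagens and laminins were read as lists. The shares of all genes called, against which their counts stand, were 16.0% higher and 14.4% lower between antibodies at T0, 11.8% and 10.2% at T3, 18.7% and 15.1% with time in HA, and 4.43% and 1.03% with time in IgG. Of the collagen assembly genes (modifying enzymes, chaperones and cross-linkers), 19 of 32 were higher in HA at T0 and 1 was lower, with a median of 0.82. They included P4ha3, a prolyl hydroxylase (3.81 ± 0.38, adjusted p 5.69e-06), Pcolce2, an enhancer of procollagen cleavage (3.90 ± 0.39, adjusted p 6.01e-06), the procollagen chaperone Fkbp10 (1.97 ± 0.21, adjusted p 9.44e-06) and the cross-linking enzyme Loxl1 (1.64 ± 0.21, adjusted p 5.42e-05). At T3 9 of 26 were higher and 1 lower, and with time in HA 5 of 33 rose and 8 fell. The latter counts depended on the scaling and on single libraries, being 1 and 20 with library totals, 3 and 5 with DESeq2, 3 and 5 without animal 2 of HA T0, 2 and 3 without animal 1 of HA T3 and 3 and 3 without animal 4 of HA T3. At T3 between antibodies, 5 of 26 were higher and 0 lower without animal 1 or 4 of HA T3. Creb3l1, a transcription factor that drives secretory and collagen genes, rose in HA (2.22 ± 0.29, adjusted p 5.75e-06), and Plod2, a lysyl hydroxylase, fell (-1.48 ± 0.28, adjusted p 0.000398). In IgG 1 of 23 was called with time, Pcolce, which fell (-1.22 ± 0.32, adjusted p 0.0408) and lost its call without each of 5 single libraries (animals 1, 2 and 4 of IgG T0 and animals 1 and 4 of IgG T3, adjusted p up to 0.162 over all alternatives).

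Of the other basement membrane genes, 7 of 17 were higher and 5 lower in HA at T0. Sparc, a collagen-binding glycoprotein (2.76 ± 0.20, adjusted p 3.40e-07), Fbln2 (2.97 ± 0.24, adjusted p 8.33e-07), Smoc1 (2.73 ± 0.28, adjusted p 8.02e-06) and Vwa1 (2.03 ± 0.23, adjusted p 2.10e-05) had the smallest p among them. At T3 5 of 13 were higher and 5 lower, with time in HA 4 of 16 rose and 6 fell, and in IgG edgeR and DESeq2 each called 0 of 12, with 2 at an unadjusted p under 0.05 and 1 called without animal 1, 3 or 4 of IgG T3. Without animal 4 of HA T3 the counts with time in HA were 4 and 2. Of the cell receptors for matrix, 14 of 29 were higher and 2 lower in HA at T0. Dag1, which encodes the laminin receptor dystroglycan (2.22 ± 0.19, adjusted p 1.57e-06), and Adgrg1, a receptor that binds collagen III (3.03 ± 0.28, adjusted p 3.04e-06), were higher at T0 and again at T3 (2.34 ± 0.35, adjusted p 0.00016 and 3.55 ± 0.42, adjusted p 1.71e-05). At T3 7 of 27 were higher and 5 lower, and with time 4 of 28 rose and 4 fell in HA (3 and 13 with library totals, 3 and 1 without animal 1 of HA T0 or animal 4 of HA T3) and 3 of 23 rose in IgG. The proteoglycan Sdc4 rose in both (2.68 ± 0.21, adjusted p 8.73e-09 in HA and 2.44 ± 0.34, adjusted p 0.000491 in IgG), as did the hyaluronan receptor Cd44 (1.54 ± 0.19, adjusted p 2.93e-06 and 1.85 ± 0.49, adjusted p 0.0427). The Cd44 call in IgG was lost without each of 5 single libraries (animals 2 and 4 of IgG T0 and every IgG T3 library, adjusted p up to 0.189 over all alternatives). The third in IgG was the fibronectin receptor chain Itga5 (2.17 ± 0.39, adjusted p 0.00316). Fitting the 12 libraries together, it was not called (adjusted p 0.0569, range 5.82e-07 to 0.0569).

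Of the interstitial matrix genes, which bind or surround the fibres, 7 of 33 were higher and 14 lower in HA at T0, and 2 of 26 were higher and 9 lower at T3 (0 and 7 without animal 1 or 4 of HA T3). Matn2, an adaptor protein of matrix filaments, was higher in HA at T0 (3.21 ± 0.31, adjusted p 4.55e-06), and decorin (Dcn), a proteoglycan of collagen fibrils, was lower at both times (-1.79 ± 0.22, adjusted p 5.02e-05 and -1.92 ± 0.29, adjusted p 0.000173). With time in HA 3 of 32 rose and 9 fell (1 and 6 without animal 1 of HA T3 and 1 and 5 without animal 4 of HA T3), and in IgG 1 of 22 rose and 1 fell (1 and 3 without animal 1 of IgG T3). Dcn fell in both precipitates (-1.79 ± 0.23, adjusted p 7.87e-06 and -1.82 ± 0.31, adjusted p 0.00216) and Thbs1, the matrix glycoprotein thrombospondin, rose in both (1.78 ± 0.32, adjusted p 0.00177 and 2.56 ± 0.44, adjusted p 0.00261). The interaction called 0 of the 113 partner genes tested with edgeR and 0 with DESeq2, and 10 had an unadjusted p under 0.05. Without animal 4 of IgG T3 it called 1, a basement membrane gene.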

How the data were processed

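Per the labels and the study's methods, the authors prepared 3′ libraries with molecular identifiers (bulk MARS-seq), trimmed reads with cutadapt, aligned them with STAR (version 2.4.2a in the submitters' processing notes) to mm10 with a Gencode annotation given as version 10.0, and counted molecules with HTSeq in a window from 1000 bases before to 100 after each gene's 3′ end. The deposited values used here are raw counts per gene, 12975 genes in 12 libraries, and the series table and the single files held identical values. Strand use in counting is not given in the sources used here, nor is which libraries shared a pool, so a batch could not be set against the groups.

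Counts were tested with edgeR 4.0.16 (R 4.3.3) by the quasi-likelihood F test with robust fits, TMM scaling and the default filterByExpr, HA against IgG and T3 against T0 on the 6 libraries of each comparison and the interaction on all 12, with Benjamini-Hochberg adjustment over all genes tested. Alternatives were RLE and total-count scaling, no filter or at least 5 counts in 1 library, DESeq2 1.42.0, a fit of all 12 libraries, the replicate number as a block, a minimum absolute log2 fold change of 1 and leaving out each library. The fits were also run on simulated counts, with changes seeded only in genes above a minimum mean count. That run does not cover changes in genes near the floor, and no result here rests on it. HA and IgG of 1 animal come from 1 homogenate, so the number pairs them, and their deviations from the group means correlated by 0.27, 0.27 and 0.27 at T0 and 0.16, 0.15 and 0.089 at T3 over 10314 genes. Between T0 and T3 equal numbers are different animals. Libraries of such different animals correlated by -0.10 to 0.17. The values of the same animal at T3 lay within that range and by themselves show no pairing. With 3 animals a group, p-values set a difference against the variation between these libraries. The main fits did not use the pairing of HA and IgG. A gene was named if it passed the filter, with all libraries given for genes called at 20 CPM or more in a group mean, and up to 4 genes per partner list were named by p. The genes and lists were chosen with earlier results of these data known. Gene positions are from Gencode M21 (GRCm38). No column of the files was left out. The values of 1 of the 45 genes are counted in the totals but not reported here.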

Additional observations from a re-analysis of the deposited data

How the results depend on the processing

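For T3 against T0 in HA the count of called collagen and laminin genes went from 19 to 12 with a minimum absolute log2 fold change of 1, by the construction of that test. Over all 9441 genes the calls went from 1765 higher and 1422 lower to 1025 and 698. For T3 against T0 in IgG the count of these genes went from 1 to 4 without a filter and 6 in a fit of all 12 libraries. Both test more genes. It went to 2 with the replicate block on the shared animal numbers, and it ran from 1 to 3 when 1 library was left out. The cause was not tested for the block. Over all genes the calls in IgG were 231 higher and 54 lower of 5219 in the main fit. They were 327 and 192 of 12885 without a filter, 445 and 259 of 10314 in the fit of all 12 libraries and 207 and 80 of 5219 with the block. The total called stayed within 1.5 times in the other comparisons, that of the interaction being 0 under every alternative run, but the 7 higher and 5 lower between antibodies at T3 went to 12 and 6 without a filter, 12 and 5 with a filter of 5 counts and 12 and 5 in the fit of all 12 libraries, which test more genes. Over all genes the calls between antibodies at T3 were 846 higher and 732 lower of 7200 in the main fit. In the same order of settings they were 1298 and 847 of 12891, 1216 and 836 of 11053 and 1458 and 656 of 10314. Of the partner lists, collagen assembly went from 20 calls to 13 at T0 with the fold minimum and from 10 to 16 at T3 in the fit of all 12 libraries. The fold minimum at T0 left 1192 higher and 1071 lower of all 9823 genes. With the animal as a block the calls between antibodies numbered 23 at T0 and 15 at T3, and the calls that changed are given beside the genes. Over all genes that block called 1862 higher and 1945 lower of 9823 at T0, against 1568 and 1412 in the main fit. At T3 it called 876 and 731 of 7200, against 846 and 732. With time, where the number marks no shared animal, the block gave 19 in HA. Of all 9441 genes it then called 1861 higher and 1568 lower, against 1765 and 1422 in the main fit. No called gene changed direction under any alternative. Over the single genes, 43 of 322 called values lost their call when 1 library was left out, and 11 of 54 did with the fold minimum. TMM scaling of the levels moved 14 of them in HA T3 and 1 in IgG T3 by more than their SD. Depth limits the IgG T3 values above all, where 3 counts are worth 12.1 to 34.0 CPM.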
